A study of Homo sapiens with 12 samples.

Results

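Caspases are proteases that are made as inactive precursors and cut other proteins during apoptosis. The 8 genes described here encode 5 caspases and 3 proteins that control them, and they were taken by name from a table of 63677 genes. They are CASP2, CASP6, CASP8, CASP9, CASP10, CFLAR, XIAP and APAF1. All 8 had at least 10 counts in every sample, with 284 to 4617 counts each, so that all of them were tested.

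Initiator caspases are activated when they are brought together on a platform. CASP8 and CASP10 are recruited to death receptors through the adaptor FADD, where CFLAR (c-FLIP) competes with them. In the mitochondrial route, cytochrome c binds APAF1, which assembles into the apoptosome and activates CASP9. CASP2 is activated on another platform, the PIDDosome, after DNA damage. CASP6 is an effector caspase that cleaves nuclear lamins, and XIAP binds and blocks CASP9. Most of this control acts on proteins, by cleavage and binding, while the values given here are levels of mRNA.

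RNA was sequenced from Huh7, a human hepatocarcinoma cell line, in 12 samples that fall into 4 groups of 3. Untreated cells received medium only. The others were treated for 6 h with graphene oxide sheets (GO) at 400 µg/mL, with GO carrying the ginseng saponin Rg3 (GO-Rg3) at 400 µg/mL, or with GO-Rg3 also loaded with doxorubicin (GO-Rg3-DOX) at 100 µg/mL. Doxorubicin (DOX) is an anthracycline that intercalates into DNA and blocks topoisomerase. GO and GO-Rg3 were tested against each other because they share a dose, whereas values of GO-Rg3-DOX stand beside theirs untested because its dose was lower. Samples with free DOX were not used here, so the loaded carrier cannot be told apart from its drug. All groups come from this single line, and the labels do not say that samples of a group were separate cultures, so p-values measure the spread between these samples, which may be technical.

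Libraries held 27802871 to 38877420 counts. In all 12 of them the 8 hepatocyte markers examined were between 170 and 16544 CPM (counts scaled to library size by TMM). Of 9 markers of leukocytes, fibroblasts and endothelial cells, 8 stayed at or below 8.57 CPM, with PECAM1 at 0, while LYZ was at 111.4 to 159 CPM. Marker levels differed between groups. The hepatocyte markers summed to 23529 to 23675 CPM in untreated cells and 14528 to 17668 with GO. The sums were 18122 to 21867 with GO-Rg3 and 31364 to 36780 with GO-Rg3-DOX. AFP weighs most in them, at a mean of 12287 CPM in untreated cells and 5836 with GO. The markers did not all go the same way with GO. Means of ALB, AFP, TTR, TF and FGB were lower than in untreated cells, and those of APOA1, APOB and SERPINA1 higher. The 3 fibroblast markers summed to 3.63 to 4.96 CPM in untreated cells and 10.3 to 14.0 with GO-Rg3-DOX. The 3 endothelial markers summed to 0.283 to 0.448 and 0.496 to 0.700 CPM. These endothelial sums are mostly CDH5, which had 11, 11 and 10 counts in untreated samples and 13, 12 and 13 with GO-Rg3-DOX. The part of the markers in the results was not tested. Mitochondrially encoded genes took 5.31% to 6.28% of counts in untreated cells, 12.1% to 24.1% after GO, 6.89% to 7.42% after GO-Rg3 and 12.8% to 19.4% after GO-Rg3-DOX. GO replicate 1 had the highest of these shares and the lowest mean correlation with its own group (0.9858). The paper lists RNA integrity by group without replicate numbers, and its lowest value among the 12 samples belongs to a GO sample. That sample had the fewest uniquely mapped reads of its group, as GO replicate 1 has the fewest counts. The part of RNA integrity in the results was not tested. In bulk samples, fewer cells with a transcript and less of it per cell cannot be told apart.

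CASP10 rose 2.04-fold with GO, CASP2 also rose and CASP6 fell, while GO-Rg3-DOX lowered CASP2, XIAP and CASP8 and raised CASP9 and CASP10. After GO-Rg3 no member passed the test. A gene passed at an adjusted p below 0.01 in edgeR's quasi-likelihood test, and it was called when its log2 fold change was also beyond 1 in either direction.

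With GO, 3 of the 8 members passed, 2 higher and 1 lower, where 27.6% of all 17092 tested genes did (12.1% higher and 15.4% lower). The median log2 fold change was 0.13 over the members and 0.008 over all genes. With GO-Rg3-DOX, 5 of 8 passed, 2 higher and 3 lower, against 56% of all genes (25.5% higher, 30.5% lower), and the medians were -0.22 and -0.06. This split moved with the processing: the members that passed were 0 higher and 4 lower with library totals, 0 and 3 with no filter, and 3 and 2 with the GC offset. With library totals 2152 of the 9445 genes that passed with GO-Rg3-DOX were higher, against 4350 of 9564 with TMM. With GO, library totals left 1 member higher and 1 lower, and 1223 of 4003 genes higher, against 2074 of 4713. Of all genes, 0.164% passed with GO-Rg3. This number, 28 genes in the reported fit, varied with the fit. It was 331 with DESeq2, 145 with the GC offset and 1 without untreated replicate 3. Among the members the count with GO-Rg3 was 0 in edgeR and in DESeq2. The smallest adjusted p in edgeR was 0.153, and 3 members had an unadjusted p below 0.05. Between GO-Rg3 and GO, 1 of 8 members passed, lower, against 13.6% of all genes (6.25% lower).

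**Figure D1:**
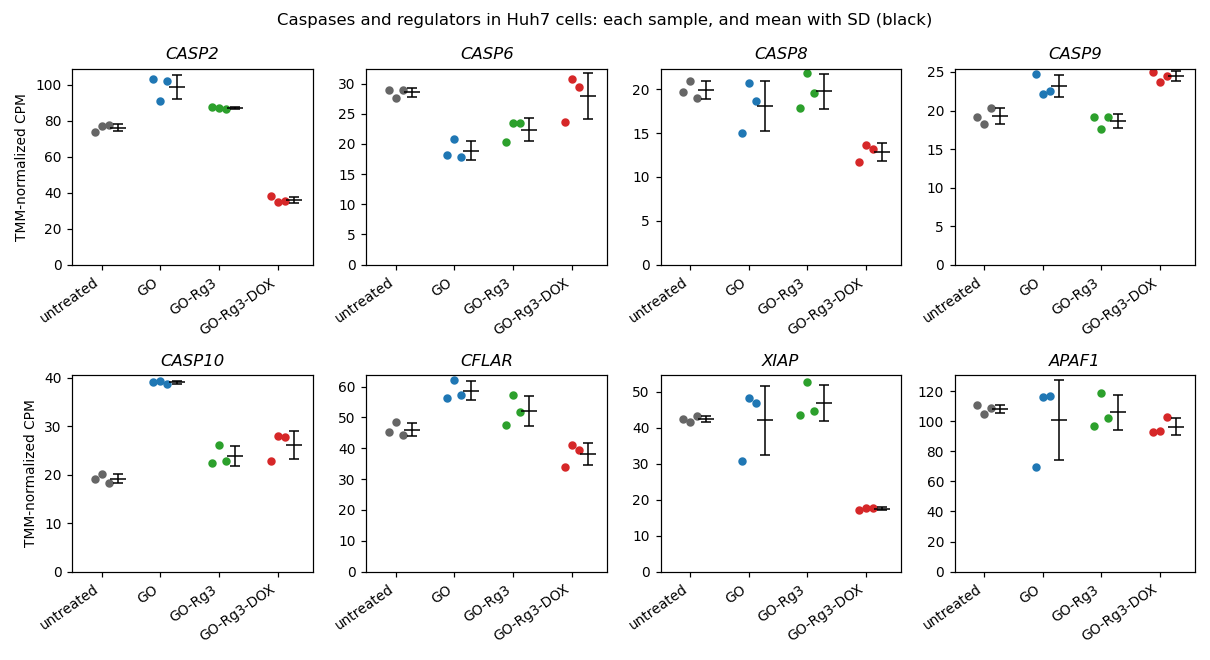
Level of each gene (vertical axis, TMM-normalized CPM, starting at 0) in the 4 groups of 3 samples. Points are samples and black bars are the mean with its SD; CASP10 lies at 38.7 to 39.4 in the GO samples, XIAP at 17.0 to 17.8 in the GO-Rg3-DOX samples, and GO replicate 1 lies apart in XIAP and APAF1.

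Levels per transcript length (RPKM, from the canonical transcript of an annotation on GRCh37) placed the members in this order in untreated cells. CASP2 was highest at 18.6 ± 0.450 RPKM (SD, n = 3), followed by CASP6 at 17.5 ± 0.478 and APAF1 at 15.0 ± 0.393. CASP8 (7.49 ± 0.377) and CASP9 (6.86 ± 0.375) overlapped in their samples, XIAP was at 4.95 ± 0.0871, and CASP10 (3.38 ± 0.163) overlapped with CFLAR (3.15 ± 0.149). The CFLAR value is uncertain because its canonical transcript, of 14612 bases, is much longer than those of the others. Other values, and so the order, also depend on the length chosen. All exons of CASP2 together hold 8020 bases and its canonical transcript 4089. The same lengths are 7237 and 2659 for CASP8, and 1943 and 1634 for CASP6. Levels by exon length were not computed. After GO, CASP2 remained first at 24.2 ± 1.63 RPKM, and CASP10 at 6.89 ± 0.0546 overlapped with CASP8 at 6.82 ± 1.08. In GO-Rg3-DOX samples CASP6 was first at 17.1 ± 2.31 RPKM, CASP2 at 8.81 ± 0.431 overlapped with CASP9 at 8.69 ± 0.231, and XIAP was last at 2.05 ± 0.0543.

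CASP10 (ENSG00000003400, chr2:202047595-202094151, plus strand, GRCh37) encodes a death receptor caspase. In untreated replicates 1 to 3 it was at 19.1, 20.1 and 18.2 CPM. GO samples had 39.1, 39.4 and 38.7 CPM, GO-Rg3 samples 22.4, 26.2 and 22.8, and GO-Rg3-DOX samples 22.8, 27.9 and 27.8. All 9 treated samples were above all untreated ones, and the GO samples did not overlap with any other group. The log2 fold change with GO was 1.03 ± 0.11 (SE, adjusted p = 6.63e-06), the single call among the members in that comparison, where 3.84% of all genes were called higher. GO-Rg3-DOX raised it by 0.45 ± 0.11 on the log2 scale (adjusted p = 0.00148). For GO-Rg3 the difference from untreated cells was 0.31 ± 0.11 and did not pass (adjusted p = 0.169). GO-Rg3 was lower than GO at the same dose by a log2 fold change of -0.72 ± 0.10 (adjusted p = 0.00029, 95% interval -0.94 to -0.49). The call with GO was lost without untreated replicate 3 (0.996, adjusted p = 0.000135) and with scaling by library totals alone (0.91), although the rise passed in both. With library totals the difference between GO-Rg3 and GO did not pass (-0.57, adjusted p = 0.0118), nor did that with GO-Rg3-DOX (0.04, adjusted p = 0.805). The latter also did not pass with no filter (0.37, adjusted p = 0.0194) and without untreated replicate 3 (0.42, adjusted p = 0.0108).

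CASP8 (ENSG00000064012, chr2:202098166-202226559, plus strand) encodes the main initiator of the death receptor route and lies next to CASP10. Its level was 19.7, 21.0 and 19.0 CPM in untreated cells, 15.0, 20.7 and 18.7 with GO and 17.9, 21.9 and 19.6 with GO-Rg3. GO-Rg3-DOX samples had 11.7, 13.7 and 13.2 CPM. The GO-Rg3-DOX samples lay below the 9 others, while the remaining groups overlapped. CASP8 fell with GO-Rg3-DOX, with a log2 fold change of -0.63 ± 0.13 (adjusted p = 0.000477). With an offset for the GC content of transcripts the value was -0.26 and did not pass (adjusted p = 0.0163). With GO it was -0.13 ± 0.13 (adjusted p = 0.418) and with GO-Rg3 -0.01 ± 0.12 (adjusted p = 0.985).

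CFLAR (ENSG00000003402, chr2:201980877-202041410, plus strand), the third neighbour on that chromosome, encodes an inactive relative of these caspases. Untreated samples had 45.2, 48.5 and 44.4 CPM, GO samples 56.4, 62.2 and 57.4, GO-Rg3 samples 47.6, 57.3 and 51.7, and GO-Rg3-DOX samples 33.99, 40.9 and 39.4. The GO samples were above the untreated ones and the GO-Rg3-DOX samples below them. Neither difference passed: the log2 fold change was 0.35 ± 0.10 with GO (adjusted p = 0.0124) and -0.27 ± 0.10 with GO-Rg3-DOX (adjusted p = 0.0289). The value with GO did pass under DESeq2 (0.37, adjusted p = 0.000934) and with the GC offset (0.47, adjusted p = 7.76e-05). It also passed with RLE scaling (adjusted p = 0.0074), at least 10 counts in every sample (adjusted p = 0.00678) and only the 6 samples (adjusted p = 0.00778). It did not pass with library totals (0.23, adjusted p = 0.22), with no filter (0.32, adjusted p = 0.0524) or in any fit without 1 sample. With the replicate block both differences passed (adjusted p = 0.0034 with GO and 0.00967 with GO-Rg3-DOX). The GO-Rg3-DOX value also passed with scaling by library totals (-0.68, adjusted p = 0.000697) and was near 0 with the GC offset (0.02, adjusted p = 0.783).

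CASP9 (ENSG00000132906, chr1:15817327-15853029, minus strand) encodes the initiator of the mitochondrial route. It was at 19.1, 18.3 and 20.4 CPM in untreated cells, 24.8, 22.2 and 22.6 with GO, 19.2, 17.6 and 19.1 with GO-Rg3 and 25.0, 23.7 and 24.5 with GO-Rg3-DOX. GO and GO-Rg3-DOX samples were all above the untreated and GO-Rg3 samples. The rise with GO-Rg3-DOX, a log2 fold change of 0.34 ± 0.10, passed (adjusted p = 0.00521). It did not pass without any of 5 libraries in turn, namely untreated replicate 1 (0.34, adjusted p = 0.0219) or 2 (0.31, adjusted p = 0.0309) and GO-Rg3-DOX replicate 1 (0.32, adjusted p = 0.0138), 2 (0.36, adjusted p = 0.0111) or 3 (0.34, adjusted p = 0.0154), or with no filter (0.26, adjusted p = 0.139), and scaling by library totals turned its sign (-0.08, adjusted p = 0.573). With GO it was 0.27 ± 0.10 (adjusted p = 0.0345) and between GO-Rg3 and GO -0.32 ± 0.10 (adjusted p = 0.0237, 95% interval -0.52 to -0.11).

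APAF1 (ENSG00000120868, chr12:99039068-99129211, plus strand) encodes the scaffold of the apoptosome. Its levels were 110.7, 105 and 108.7 CPM in untreated cells, 69.8, 116 and 116.7 with GO, 96.9, 119.1 and 102.01 with GO-Rg3 and 92.9, 93.5 and 102.9 with GO-Rg3-DOX. GO replicate 1 was the lowest of the 12 samples and the other GO samples were above the untreated ones. No comparison passed. The log2 fold change with GO was -0.10 ± 0.15 (adjusted p = 0.621), and it was 0.10 without GO replicate 1. With GO-Rg3-DOX it was -0.17 ± 0.15 (95% interval -0.49 to 0.16), and 0.24 with the GC offset.

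XIAP (ENSG00000101966, chrX:122993562-123047822, plus strand) encodes the inhibitor that binds CASP9. Untreated cells had 42.3, 41.7 and 43.2 CPM, GO samples 30.9, 48.3 and 46.9, and GO-Rg3 samples 43.5, 52.7 and 44.6. In GO-Rg3-DOX samples the level was 17.0, 17.8 and 17.8 CPM, below all of the 9 others. XIAP fell 2.42-fold with GO-Rg3-DOX, a log2 fold change of -1.28 ± 0.14 (adjusted p = 1.66e-06). It was called lower, as were 18.2% of all genes in that comparison. With the GC offset the log2 fold change was -0.75 (adjusted p = 2.86e-06), so that it passed but was no longer called, and XIAP has the lowest transcript GC content of the members (39.1%). With GO the value was -0.01 ± 0.14 (adjusted p = 0.96, 95% interval -0.31 to 0.29), and 0.17 without GO replicate 1, which was the lowest GO sample.

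CASP2 (ENSG00000106144, chr7:142985308-143004789, plus strand) encodes the caspase of the PIDDosome. It was measured at 74.0, 76.9 and 77.4 CPM in untreated cells, 103.01, 91.1 and 102.2 with GO, 87.7, 86.9 and 86.8 with GO-Rg3 and 38.03, 34.7 and 35.4 with GO-Rg3-DOX. No group overlapped with any other: GO was highest, then GO-Rg3, then untreated cells, and GO-Rg3-DOX was lowest. The fall with GO-Rg3-DOX was 2.11-fold, a log2 fold change of -1.08 ± 0.09 (adjusted p = 4.45e-08), and it was called. With the GC offset it was -0.76 (adjusted p = 1.19e-06) and passed without being called. GO raised CASP2 by 0.38 ± 0.08 on the log2 scale (adjusted p = 0.00261), which did not pass with library totals (0.25, adjusted p = 0.0583), with no filter (0.35, adjusted p = 0.0254), and without untreated replicate 1 (adjusted p = 0.0177), 2 (adjusted p = 0.0125) or 3 (adjusted p = 0.0122) or GO replicate 3 (adjusted p = 0.0135). The difference between GO-Rg3 and untreated cells was 0.20 ± 0.08 (adjusted p = 0.324).

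CASP6 (ENSG00000138794, chr4:110609778-110624739, minus strand) encodes the effector caspase of the set. Its level was 29.0, 27.7 and 29.0 CPM in untreated cells, 18.1, 20.8 and 17.9 with GO, 20.3, 23.5 and 23.4 with GO-Rg3 and 23.7, 30.8 and 29.5 with GO-Rg3-DOX. GO and GO-Rg3 samples were all below the untreated ones, and the GO-Rg3-DOX samples overlapped with them. CASP6 fell with GO, with a log2 fold change of -0.59 ± 0.12 (adjusted p = 0.000926). With GO-Rg3 the value was -0.35 ± 0.11 (adjusted p = 0.153), and the direct difference of GO-Rg3 from GO was 0.24 ± 0.12 (adjusted p = 0.133, 95% interval -0.00 to 0.49). With GO-Rg3-DOX it was -0.03 ± 0.11 (adjusted p = 0.839), but 0.33 with the GC offset (adjusted p = 0.00327).

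**Figure D2:**
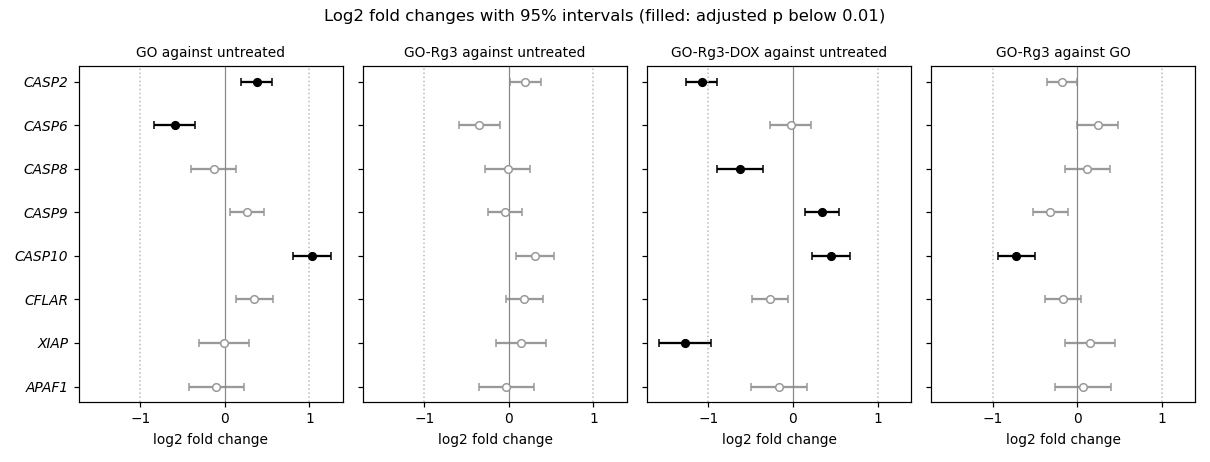
Log2 fold change (horizontal axis) of each gene (rows) in the 4 comparisons, with its 95% interval as a bar; filled points passed an adjusted p of 0.01 and dotted lines mark a log2 fold change of 1 in either direction. CASP10 reaches 1.03 with GO, CASP2 and XIAP reach -1.08 and -1.28 with GO-Rg3-DOX, and no point is filled for GO-Rg3 against untreated cells.

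At the shared dose, 7 of the 8 members did not pass between GO-Rg3 and GO, which does not show that they were alike. The remaining intervals were -0.15 to 0.39 for CASP8, -0.38 to 0.05 for CFLAR, -0.14 to 0.45 for XIAP, -0.26 to 0.40 for APAF1 and -0.36 to -0.00 for CASP2, on the log2 scale. DESeq2 also passed CASP9 (-0.30, adjusted p = 0.00988). The levels of 3 members did not overlap between GO-Rg3 and GO, all lower, and those of 18.9% of all genes were lower in this way. Against untreated cells, samples did not overlap for 5 members with GO (58.5% of all genes), 4 with GO-Rg3 (25.8%) and 7 with GO-Rg3-DOX (75.3%).

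The GC content of transcripts moved with the differences. Across 16622 genes, which are not independent replicates, Spearman's rho between GC content and the log2 fold change was 0.43 with GO, 0.20 with GO-Rg3, 0.36 with GO-Rg3-DOX and -0.43 between GO-Rg3 and GO. The members had 39.1% (XIAP) to 52.8% (CASP9) GC. As to mitochondrial counts, leaving out the 35 mitochondrially encoded genes that were tested gave log2 fold changes of 1.04 for CASP10 with GO and of -1.09 for CASP2, -1.29 for XIAP and -0.64 for CASP8 with GO-Rg3-DOX. Without the GO and the GO-Rg3-DOX library of highest mitochondrial share, these were 1.03, -1.12, -1.25 and -0.57.

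Some pairs of opposed or competing members were also compared as ratios of RPKM within a sample, which do not depend on how libraries were scaled. The level of a ratio depends on the transcript lengths used, while its fold change between groups does not. The 3 pairs were chosen after their values were seen, so the ratios are given as descriptions with no test. The CASP10 to CASP8 ratio was 0.455, 0.448 and 0.449 in untreated cells, 1.22, 0.893 and 0.973 with GO, 0.588, 0.562 and 0.546 with GO-Rg3 and 0.915, 0.957 and 0.987 with GO-Rg3-DOX. It was thus 2.26-fold higher with GO and 2.11-fold higher with GO-Rg3-DOX than in untreated cells. The CFLAR to CASP8 ratio was 0.417 to 0.424 in untreated cells, 0.547 to 0.682 with GO, 0.477 to 0.485 with GO-Rg3 and 0.529 to 0.544 with GO-Rg3-DOX. All 9 treated samples lay above the untreated ones in both ratios.

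The XIAP to CASP9 ratio, of an inhibitor to a caspase it binds, was 0.727, 0.748 and 0.695 in untreated cells and 0.223, 0.246 and 0.238 with GO-Rg3-DOX, 3.07-fold lower. These genes are the members of lowest and highest transcript GC content, and with the GC offset their log2 fold changes were -0.75 and 0.27, against -1.28 and 0.34 without it. With GO it was 0.409, 0.714 and 0.681, and with GO-Rg3 it was 0.744, 0.986 and 0.766. GO replicate 2 lay within the untreated range and GO replicates 1 and 3 below it.

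**Figure D3:**
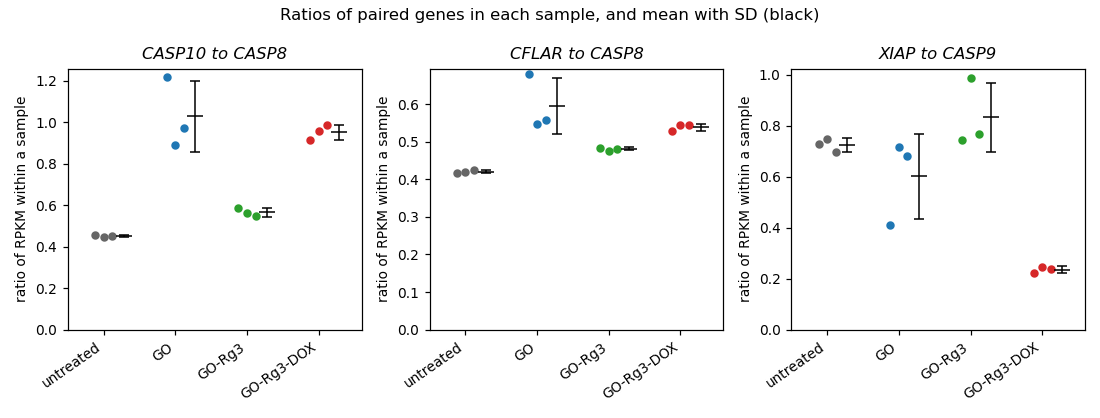
Ratio of RPKM values of paired genes within each sample (vertical axis, starting at 0) in the 4 groups; points are samples and black bars are the mean with its SD. The CASP10 to CASP8 ratio is lowest in untreated cells, at 0.448 to 0.455, and the XIAP to CASP9 ratio is lowest with GO-Rg3-DOX, at 0.223 to 0.246.

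CASP2 and XIAP, the members called lower with GO-Rg3-DOX, and CASP9, which rose, are shown with their promoter sequences so that the regions can be compared. These are 300 bases around the first start that RefSeq lists for each gene, most of them before it, on GRCh38.p14, a later build than that of the counts. Capitals mark GGGCGG or its reverse complement CCGCCC, the core of the box that Sp1 binds, and matches may overlap. The positions are chr7:143288101-143288400 (plus strand) for CASP2, chrX:123859458-123859757 (plus strand) for XIAP and chr1:15524166-15524465 (minus strand) for CASP9.
CASP2: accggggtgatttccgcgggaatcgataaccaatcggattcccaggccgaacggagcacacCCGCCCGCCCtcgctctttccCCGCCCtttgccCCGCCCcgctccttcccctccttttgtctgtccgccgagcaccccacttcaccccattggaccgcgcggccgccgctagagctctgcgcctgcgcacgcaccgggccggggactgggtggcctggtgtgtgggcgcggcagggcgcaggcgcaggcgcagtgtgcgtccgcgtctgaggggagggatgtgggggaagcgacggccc
XIAP: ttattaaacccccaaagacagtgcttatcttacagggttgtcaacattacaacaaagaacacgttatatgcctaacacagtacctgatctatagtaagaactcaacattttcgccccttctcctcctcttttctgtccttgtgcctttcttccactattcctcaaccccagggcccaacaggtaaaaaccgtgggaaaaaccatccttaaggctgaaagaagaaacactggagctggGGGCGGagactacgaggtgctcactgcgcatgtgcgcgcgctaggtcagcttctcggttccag
CASP9: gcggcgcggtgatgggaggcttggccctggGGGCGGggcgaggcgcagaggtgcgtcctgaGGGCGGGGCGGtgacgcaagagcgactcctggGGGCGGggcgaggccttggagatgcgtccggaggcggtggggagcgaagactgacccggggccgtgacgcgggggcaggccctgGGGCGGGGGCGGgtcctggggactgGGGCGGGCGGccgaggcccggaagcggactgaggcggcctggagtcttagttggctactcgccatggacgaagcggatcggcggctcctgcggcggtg

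The CASP2 window holds 4 such matches, that of XIAP 1 and that of CASP9 8. Matches were found in 7 of the 7 members with a promoter in the table, 1 each in CASP8, CFLAR and APAF1 and 3 in CASP6, and in 44.6% of 27305 promoters of the same length. CASP10 had no entry. GC content was 71.3% for CASP2, 48.0% for XIAP and 76.0% for CASP9, beside a median of 58.3%. On either strand CCAAT occurs 2 times in the CASP2 window, 1 time in that of APAF1 and in none of the other 5 (35.7% of all promoters), and TATAAA in none of the 7 (12% of all). These are descriptions of letters in the windows.

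Another 32 genes of the pathway were examined, of which 28 had enough counts; FAS, BIRC7, CASP12 and CASP14 did not. With GO, 5 of the 28 passed, 3 higher and 2 lower, with a median log2 fold change of -0.06. With GO-Rg3 1 passed, higher (median -0.05), where 0.0585% of all genes did, and with GO-Rg3-DOX 16 passed, 4 higher and 12 lower (median -0.37). The latter were 1 higher and 15 lower with library totals, and 5 and 7 with the GC offset. Between GO-Rg3 and GO 3 passed, 1 higher and 2 lower (median -0.02), or 1 and 1 with library totals. These counts stand against the shares of all genes given above for the members.

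Of the death receptors and their adaptors, 5 of 6 passed with GO-Rg3-DOX, 1 higher and 4 lower, where 56% of all genes passed (25.5% higher and 30.5% lower). TNFRSF1A, the main receptor of tumour necrosis factor, went from 93.5 ± 4.57 CPM (SD, n = 3) in untreated cells to 11.9 ± 0.719 CPM (log2 fold change -2.97 ± 0.13, adjusted p = 1.15e-10). FADD, the adaptor of CASP8 and CASP10, went from 3.61 ± 0.528 to 0.634 ± 0.194 CPM, with 11, 17 and 22 counts in the treated samples (log2 fold change -2.50 ± 0.22, adjusted p = 1.35e-07). RIPK1, a kinase of receptor complexes, was lower by -1.01 ± 0.10 (adjusted p = 2.48e-07), and by -0.90 with the GC offset. TNFRSF10B, a receptor for TRAIL, rose from 138 ± 0.745 to 225 ± 25.8 CPM (0.71 ± 0.09, adjusted p = 7.06e-06). The rise did not pass with library totals (0.30, adjusted p = 0.0564). TNFRSF10A, the other TRAIL receptor of the list, went the other way (-0.83 ± 0.16, adjusted p = 0.000362). Both TRAIL receptors were named after their values were seen. Most of FADD's exon bases (59.2%) overlap a noncoding RNA on the opposite strand, from which its reads cannot be told apart if counting ignored strand.

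Of the PIDDosome, PIDD, which holds CASP2 in that complex, was at 6.95 ± 1.04 CPM in untreated cells and rose with GO-Rg3-DOX to 26.1 ± 3.18 CPM (log2 fold change 1.91 ± 0.22, adjusted p = 1.63e-06). Its transcript has 66.0% GC, and the value was 1.25 with the GC offset. CRADD, the adaptor between PIDD and CASP2, fell with GO from 4.99 ± 0.351 to 2.44 ± 0.348 CPM (-1.02 ± 0.20, adjusted p = 0.00109). Its value with GO-Rg3-DOX was 0.03 ± 0.19 and did not pass (adjusted p = 0.903). CYCS, or cytochrome c, the ligand of APAF1, fell with GO from 376 ± 10.3 to 226 ± 15.3 CPM (-0.74 ± 0.11, adjusted p = 9.52e-05) and was higher with GO-Rg3 than with GO (0.45 ± 0.11, adjusted p = 0.0063). That last difference did not pass with the GC offset (0.28, adjusted p = 0.0194), alone or with the replicate block as well (0.28, adjusted p = 0.0153). It also did not pass with only those 6 samples (0.45, adjusted p = 0.0535), or without GO replicate 2 (0.48, adjusted p = 0.0114) or 3 (0.39, adjusted p = 0.0348). The same held without GO-Rg3 replicate 2 (0.34, adjusted p = 0.027) or 3 (0.45, adjusted p = 0.0255).

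Among relatives of XIAP, BIRC3 (cIAP2), a ubiquitin ligase of receptor complexes, changed in each comparison. Of the 5 relatives tested it alone passed with GO, with GO-Rg3 and between GO-Rg3 and GO. The shares of all genes there were 27.6%, 0.164% and 13.6%. With GO-Rg3-DOX 4 of the 5 passed, 1 higher and 3 lower, where 56% of all genes did (25.5% higher, 30.5% lower). BIRC3 was at 8.10, 8.44 and 6.81 CPM in untreated cells and 22.1, 27.98 and 25.6 with GO. Its levels were 14.9, 16.6 and 14.8 CPM with GO-Rg3 and 3.96, 3.95 and 4.19 with GO-Rg3-DOX. No group overlapped with any other. The log2 fold changes were 1.70 ± 0.12 with GO (adjusted p = 2e-07), 0.99 ± 0.12 with GO-Rg3 (adjusted p = 0.00224), -0.94 ± 0.13 with GO-Rg3-DOX (adjusted p = 1.46e-05) and -0.71 ± 0.12 between GO-Rg3 and GO (adjusted p = 0.000621). The GO-Rg3 rise did not pass without untreated replicate 1 (1.02, adjusted p = 0.0192), 2 (1.05, adjusted p = 0.0146) or 3 (0.90, adjusted p = 0.0338) or GO-Rg3 replicate 3 (1.02, adjusted p = 0.0124), nor did the GO-Rg3-DOX fall with the GC offset (-0.31, adjusted p = 0.019). The difference between GO-Rg3 and GO did not pass with library totals (-0.58, adjusted p = 0.016) and with only those 6 samples (-0.72, adjusted p = 0.0121).

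NOL3 (ARC), a CARD protein that binds caspases and blocks them, rose with GO from 6.45 ± 0.285 to 18.5 ± 1.83 CPM (log2 fold change 1.52 ± 0.12, adjusted p = 5.07e-07). It was lower with GO-Rg3 than with GO by -1.30 ± 0.12 (adjusted p = 3.65e-06), the single call of the list in that comparison, where 2.07% of all genes were called lower, and -0.97 with the GC offset. With GO-Rg3-DOX it was 0.44 ± 0.12 (adjusted p = 0.005), and -0.10 with the GC offset. The rise with GO-Rg3-DOX did not pass without untreated replicate 1 (adjusted p = 0.0125), 2 (adjusted p = 0.0244) or 3 (adjusted p = 0.0169) without GO-Rg3-DOX replicate 1 (adjusted p = 0.015) or 2 (adjusted p = 0.0209), with library totals (0.02, adjusted p = 0.912) and with no filter (0.36, adjusted p = 0.0612). DFFB, the nuclease that cuts DNA in apoptosis, fell with GO-Rg3-DOX from 7.37 ± 0.270 to 1.72 ± 0.214 CPM (-2.10 ± 0.14, adjusted p = 6.36e-09), and CASP8AP2, a partner of CASP8, fell by a log2 value of -0.84 ± 0.20 (adjusted p = 0.00171), which did not pass with the GC offset (-0.25, adjusted p = 0.0985) or without GO-Rg3-DOX replicate 1 (-0.71, adjusted p = 0.0133).

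**Figure D4:**
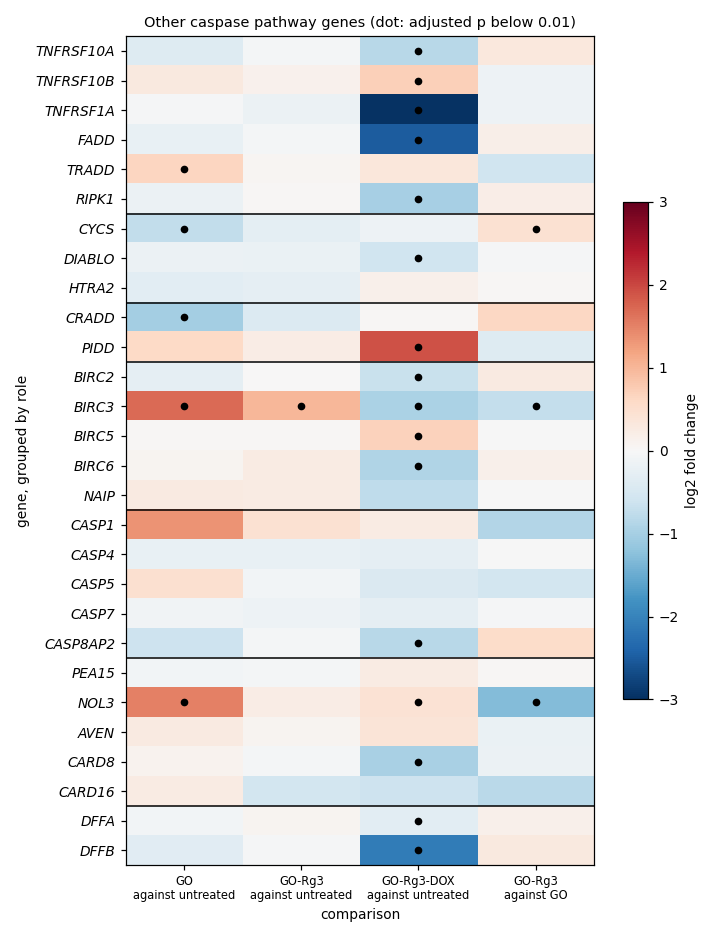
Log2 fold change (colour, from -3 to 3) of the 28 other pathway genes with enough counts (rows, separated by role) in the 4 comparisons (columns); a dot marks an adjusted p below 0.01. Dots number 5 for GO, 1 for GO-Rg3, 16 for GO-Rg3-DOX and 3 for GO-Rg3 against GO, and the deepest blue is TNFRSF1A at -2.97.

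For the members that were called, the genes with the most similar pattern over the 12 samples were found by Pearson's r of log2 CPM among 13241 genes with a mean of at least 1 CPM. They were ERN1 (r = 0.9748), MGEA5 (0.974) and C6orf222 (0.972) for CASP10. For CASP2 they were ZNF773, BRD2 and C3orf70 (each 0.994), and for XIAP they were DENND4C (0.995), RSF1 (0.995) and ZC3H11A (0.994). The 12 points share libraries and fall into the 4 groups, so these values are descriptions.

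Exons of CASP2, CASP10 and XIAP share no bases with another gene in the annotation used. Shared bases on the opposite strand were 5.0% of exon bases in CASP6 (with MCUB), 1.9% in CASP9 (with CELA2B) and 9.7% in APAF1 (with ANKS1B), and CFLAR shares 6.6% with a pseudogene and 3.5% with CFLAR-AS1. CASP8 (4.7%) and CFLAR (2.0%) overlap noncoding RNAs on their own strand. The sources used here do not state whether strand was used in counting or how reads at shared bases were counted. The levels of these 5 genes may therefore have gained or lost reads there.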

How the data were processed

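RNA-seq counts were analysed for 12 samples of Huh7 cells in 4 groups of 3, grouped by their labels. The authors prepared stranded mRNA libraries, ran the NGI-RNAseq pipeline with GRCh37 as the genome, and obtained counts for each Ensembl gene from featureCounts. The deposited counts are whole numbers without normalization, and summed to 390901242 over the samples. The annotation release and the strand setting are not given in the sources used here. No molecular identifiers were used, so that reads need not be independent molecules and depth bears on counting error alone.

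The 17092 genes that reached 10 counts in 3 or more samples were scaled by TMM and fitted in 1 model of all 12 samples with the quasi-likelihood test of edgeR 4.0.16 in R 4.3.3, with Benjamini-Hochberg adjustment over all genes in each comparison. The study used DESeq2, the same filter, an adjusted p of 0.01 and a log2 fold change of 1. Log2 fold changes are given with their SE. RPKM is CPM per kilobase of the canonical transcript of an annotation lifted to GRCh37, and its release may differ from that used for counting. Transcript GC content was known for 97.3% of genes tested. Promoters are from RefSeq (GRCh38.p14). Tables and figures were made with Python 3.11.15, pandas 2.3.3 and matplotlib 3.10.9. The fit was also run on simulated data in which few genes changed, so that run does not bear on scaling where many genes change.

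The members, the list of other pathway genes and the markers were chosen with earlier results of these data known. All members were named, and of the list each gene called in any comparison and the gene of smallest adjusted p in each role, along with the 3 genes most correlated with each called member. TNFRSF10A and TNFRSF10B were named outside this rule. Alternatives were RLE scaling, library totals alone, mitochondrially encoded genes left out, no filter (35604 genes), at least 10 counts in every sample (13706 genes), DESeq2 1.42.0, the replicate block, a GC content offset (loess, span 0.5) alone or together with the block, a fit of the 6 samples of a comparison, fits without each sample and an adjusted p of 0.05. Leaving out the GO and the GO-Rg3-DOX library with the highest mitochondrial share was added after seeing the data. An item is not reported here.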

Additional observations from a re-analysis of the deposited data

How the results depend on the processing

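Of 153 values of the 9 member results that passed, under all alternatives, 134 kept their direction and passed, 18 kept the direction and did not pass, and 1 changed sign. The causes of the changes were not tested. At an adjusted p of 0.05 the members that passed numbered 5 with GO and 2 between GO-Rg3 and GO, and the list genes 10 and 5. Between GO-Rg3 and GO, 0 members passed with library totals and 2 with DESeq2. With no filter, 3 members passed with GO-Rg3-DOX and 6 list genes between GO-Rg3 and GO, where 1 did with only the 6 samples compared. With each library left out in turn, members that passed ranged from 2 to 3 with GO, were 4 each time with GO-Rg3-DOX (CASP10 lost without untreated replicate 3, at 0.42 and adjusted p = 0.0108, CASP9 in the other fits), 0 with GO-Rg3 and 1 between GO-Rg3 and GO. List genes ranged from 4 to 5, 13 to 15, 0 to 1 and 2 to 5 in that order, with 5 without GO-Rg3 replicate 1. Library totals moved the all-gene median with GO-Rg3-DOX from -0.056 to -0.472, with GO from 0.008 to -0.108 and between GO-Rg3 and GO from -0.023 to 0.124, and CASP9 (-0.076) and CASP10 (0.044) were above that median with GO-Rg3-DOX. The lowest count of a member in any library was 284.

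The replicate numbers recur in each group. Deviations of same-numbered samples correlated by -0.024 to 0.239, and above 0.1 for every number in no comparison. Even so, 10 of 12 samples correlated best with their own number. These values do not settle whether same-numbered samples belong together, and the reported fit had no block. With the replicate block, CFLAR also passed with GO (0.35, adjusted p = 0.0034) and with GO-Rg3-DOX (-0.28, adjusted p = 0.00967), and no member that had passed was lost. The block raised the genes that passed from 4713 to 5791 with GO, 28 to 84 with GO-Rg3, 9564 to 10094 with GO-Rg3-DOX and 2321 to 3371 between GO-Rg3 and GO. With both block and GC offset, 8 list genes passed with GO and 5 between GO-Rg3 and GO.

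Signs changed as follows, on the log2 scale. With the GC offset, and then with the block as well, values with GO were 0.039 and 0.034 for CASP8, 0.263 and 0.259 for XIAP and 0.088 and 0.078 for APAF1. Those with GO-Rg3 were 0.050 and 0.050 for CASP8 and 0.031 and 0.031 for APAF1, and those with GO-Rg3-DOX were 0.328 and 0.326 for CASP6, 0.024 and 0.023 for CFLAR, 0.237 and 0.235 for APAF1 and -0.103 and -0.106 for NOL3. Between GO-Rg3 and GO they were -0.051 and -0.048 for XIAP and -0.057 and -0.047 for APAF1. With RLE scaling, CASP6 was 0.040 with GO-Rg3-DOX, CASP8 0.018 with GO-Rg3 and XIAP 0.011 with GO, and DESeq2 gave the same 0.040, 0.018 and 0.011. CASP8 with GO-Rg3 was 0.016 with library totals and 0.015 without mitochondrially encoded genes. With at least 10 counts in every sample, CASP6 was 0.005 with GO-Rg3-DOX and XIAP 0.018 with GO. With only the 6 samples compared, CASP6 was 0.014 with GO-Rg3-DOX, CASP8 0.055, CASP9 0.021 and APAF1 0.037 with GO-Rg3, and XIAP 0.000 with GO. Without the libraries of highest mitochondrial share, CASP6 was 0.078 with GO-Rg3-DOX, XIAP 0.167 and APAF1 0.104 with GO, and XIAP -0.022 and APAF1 -0.134 between GO-Rg3 and GO. With each library left out in turn, ranges were -0.212 to 0.104 (APAF1) and -0.123 to 0.167 (XIAP) with GO, -0.121 to 0.031 (APAF1) and -0.089 to 0.056 (CASP8) with GO-Rg3, -0.102 to 0.078 (CASP6) with GO-Rg3-DOX, and -0.134 to 0.186 (APAF1) and -0.021 to 0.268 (XIAP) between GO-Rg3 and GO.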
